A study of Homo sapiens with 6 samples.

Results

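The genes described here are the human zinc transporters, the metallothioneins and the zinc-sensing transcription factor MTF1. They were chosen with earlier results of these data known. The rule went by symbol, taking protein-coding genes of the SLC30A, SLC39A and MT1 families together with MT2A, MT3 and MTF1. It gave 35 of the 61279 genes in the data. Of these, 10 were SLC30A genes, 14 were SLC39A genes and 10 were metallothioneins. By the labels, RNA was sequenced from T47D, a hormone receptor-positive, PIK3CA-mutant breast cancer cell line, grown in RPMI medium with fetal bovine serum. The 3 libraries labelled DMSO came from cells given vehicle, and the 3 labelled MI-503 from cells given 4 μmol/L MI-503, a compound that keeps menin from binding the histone methyltransferase MLL1, both for 24 hours. The labels name no other cell line, and the study describes the libraries of a label as independent experiments. The comparison asked which of these genes differ in RNA level between the labels.

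Total reads ranged from 17404736 to 22168525 per library. The libraries labelled DMSO went against their label. ESR1, the estrogen receptor that defines hormone receptor-positive breast cells, was between 0 and 0.194 CPM (reads scaled to library size) in the libraries labelled DMSO and between 209.5 and 295.5 CPM in those labelled MI-503. KLK3, which encodes prostate-specific antigen, averaged 3708 ± 47.9 CPM (SD, n = 3) with the DMSO label and had no read with the MI-503 label. Of 16 luminal breast markers, 14 were tested, of which 13 were higher and 1 was lower with the MI-503 label, with a summed level of 642 to 847 CPM against 10930 to 13790 CPM, SCGB2A2 being at 0 with the DMSO label and ANKRD30A with the MI-503 label. All 12 prostate markers were lower, with a summed level of 6835 to 8317 CPM against 148 to 158 CPM, and only KLK3 of them was at 0 with the MI-503 label. Basal epithelial markers summed to between 4.01 and 4.84 against at most 0.297 CPM (1 of 5 tested, lower), mesenchymal markers to between 39.0 and 69.3 against 112 to 164 CPM (3 of 7 tested, all higher) and blood cell markers to between 0.859 and 2.64 against 3.51 to 4.03 CPM (2 of 6 tested, 1 higher), with KRT5, KRT17, PTPRC and CD3E at 0 throughout. For all genes tested, the shares were 31.7% higher and 31.2% lower. In such bulk samples, fewer cells of a type and less RNA per cell cannot be told apart. Correlations of log2(CPM + 1) over tested genes lay between 0.974 and 0.992 for libraries of the same label and between 0.758 and 0.778 across labels, as a description over genes that share libraries. An effect of MI-503 and a difference in the cells behind the labels cannot be told apart in any comparison below, and no value without the libraries in doubt could be given, since they are all 3 of the DMSO label.

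Zinc is a cofactor or structural ion of many enzymes and transcription factors, and the free ion in the cytosol is held at a very low level. SLC30A (ZnT) proteins move zinc out of the cytosol, to the outside or into organelles, whereas SLC39A (ZIP) proteins move it in. Metallothioneins are small cysteine-rich proteins that bind zinc, copper and cadmium, and MTF1 is the factor that binds metal response elements (MREs) in the promoters of metallothionein genes and SLC30A1 when zinc rises.

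The promoters of MT2A, MT1X, SLC30A1 and SLC30A4 are shown because MT2A and MT1X held most metallothionein RNA, SLC30A1 is the classical transporter target of MTF1, and SLC30A4 had the largest negative fold change of the members tested. Each is the 250 bases before the gene's start, from RefSeq (GRCh38.p14), 5′ to 3′ on the gene's strand: MT2A at chr16:56608334-56608583 (plus strand), MT1X at chr16:56682220-56682469 (plus), SLC30A1 at chr1:211579162-211579411 (minus) and SLC30A4 at chr15:45522756-45523005 (minus). Capitals mark the MRE core, searched on both strands as the letters TGCACNC and TGCGCNC, where N is any base.
MT2A: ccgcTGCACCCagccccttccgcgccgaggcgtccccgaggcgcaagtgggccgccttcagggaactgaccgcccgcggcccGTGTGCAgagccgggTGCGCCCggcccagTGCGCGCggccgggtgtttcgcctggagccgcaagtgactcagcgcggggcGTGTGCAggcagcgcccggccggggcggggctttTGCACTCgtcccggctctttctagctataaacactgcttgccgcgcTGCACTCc
MT1X: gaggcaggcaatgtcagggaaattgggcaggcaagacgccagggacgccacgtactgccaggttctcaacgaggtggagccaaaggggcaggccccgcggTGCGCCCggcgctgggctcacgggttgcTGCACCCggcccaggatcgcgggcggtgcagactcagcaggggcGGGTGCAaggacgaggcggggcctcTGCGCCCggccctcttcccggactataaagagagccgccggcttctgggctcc
SLC30A1: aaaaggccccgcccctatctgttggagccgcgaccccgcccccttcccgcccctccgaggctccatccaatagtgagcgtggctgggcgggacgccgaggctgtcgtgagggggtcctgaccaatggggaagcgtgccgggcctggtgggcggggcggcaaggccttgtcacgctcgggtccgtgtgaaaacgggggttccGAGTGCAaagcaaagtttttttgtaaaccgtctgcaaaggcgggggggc
SLC30A4: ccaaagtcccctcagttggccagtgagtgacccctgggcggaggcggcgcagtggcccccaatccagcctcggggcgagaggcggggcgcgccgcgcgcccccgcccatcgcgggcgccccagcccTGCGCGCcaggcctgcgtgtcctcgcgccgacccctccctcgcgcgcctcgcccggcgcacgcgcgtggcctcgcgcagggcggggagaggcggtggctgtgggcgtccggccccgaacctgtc

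The MT2A window held 7 matches, 5 on the gene's strand and 2 on the other, and MT1X held 4. SLC30A1 held 1, on the opposite strand, between 43 and 49 bases before the start, and SLC30A4 held 1. Of all 34943 promoter windows of this length, 24.8% held at least 1 match, 0.369% at least 4 and 0.0315% at least 7. Windows were at hand for 26 of the 35 genes, some with more than 1 window, and 14 of these genes had a match in any window. That count is per gene, whereas the shares of all windows are per window, so they are not alike. MT1F and MT1M were among the genes without a window. The other genes with more than 1 match were MT1H, MT1B, SLC30A2 and SLC30A3, of which only SLC30A3 had enough reads to be tested. MT1H held 8 matches, more than MT2A, and had no read in any library. The MTF1 window itself had none. A match is a run of letters in a short window, and binding was not measured.

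Of the 35 genes, 23 passed the filter on low counts and 12 did not. In edgeR's quasi-likelihood test at an adjusted p under 0.05, 9 of the 23 were higher with the MI-503 label and 11 were lower, while MT1X, MTF1 and SLC30A5 did not pass. Over all 16442 genes tested, 62.9% passed in either direction, 31.7% as higher and 31.2% as lower. With a log2 fold change beyond 2 as well, 5 members passed, against 24.3% of all genes: SLC30A1, SLC39A2 and MT1F were higher (12.6% of all genes) and SLC30A4 and SLC39A10 were lower (11.7%). MT1F and SLC39A2 passed the filter through the MI-503 label alone, so they had to differ. The CPM ranges of the labels did not overlap for 20 of the 23, against 68.7% of all genes tested. The median size of the log2 fold change was 1.30 for the members tested and 0.90 for all genes, and the signed medians were −0.11 and −0.0044.

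**Figure D1:**
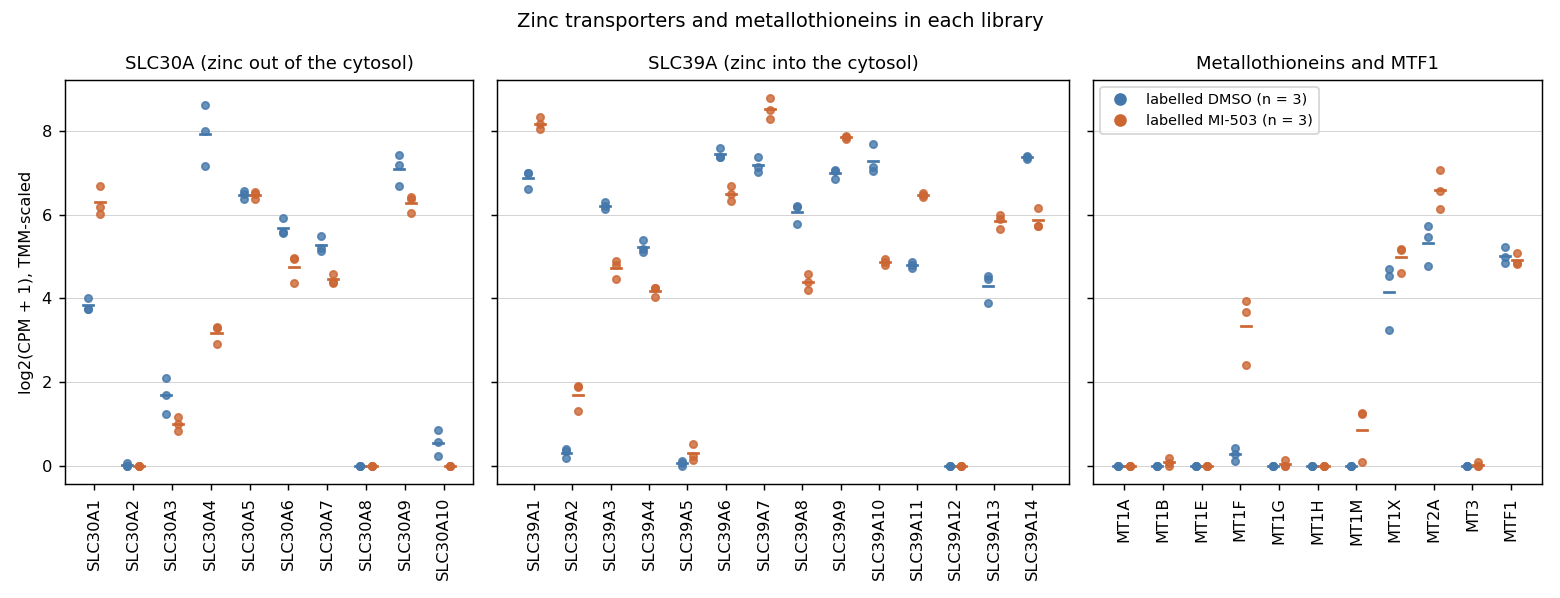
Level of each of the 35 genes in each library, as log2(CPM + 1) after TMM scaling; points are libraries (3 per label) and short lines are means of these logs. SLC30A4 and SLC39A10 sat far lower with the MI-503 label, SLC30A1 and MT1F far higher, and SLC30A5 and MTF1 overlapped.

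Among the SLC30A genes, SLC30A1 was higher and 5 of the other 6 tested were lower with the MI-503 label. The shares of all genes tested were 31.7% higher and 31.2% lower. SLC30A1 (chr1:211571568-211579161, minus strand, GRCh38), the exporter at the plasma membrane, had 12.4, 12.5 and 15.1 CPM in DMSO replicates 1 to 3 and 102, 71.4 and 64.2 CPM in MI-503 replicates 1 to 3. Every library labelled MI-503 lay above every library labelled DMSO, with a log2 fold change of 2.57 ± 0.21 (SE) and an adjusted p of 5.45e-06. SLC30A4 (chr15:45479606-45522755, minus strand), a vesicle transporter best known from the mammary gland, went the other way. Its levels were 390.1, 254 and 142 CPM in the libraries labelled DMSO against 8.78, 6.59 and 9.03 CPM in those labelled MI-503. The libraries labelled DMSO differed widely among themselves, replicate 1 being highest, but the lowest of them was still far above all those labelled MI-503 (log2 fold change −5.01 ± 0.37, adjusted p = 2.34e-06).

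SLC30A5, SLC30A6 and SLC30A7 supply zinc to the early secretory pathway, SLC30A5 pairing with SLC30A6. SLC30A5 was at 88.6 ± 6.30 CPM in the libraries labelled DMSO against 87.7 ± 5.66 CPM in those labelled MI-503, with overlapping ranges (log2 fold change −0.02 ± 0.14, adjusted p = 0.932). Its partner SLC30A6 was lower, at 51.1 ± 7.45 against 26.6 ± 6.02 CPM (log2 −0.94 ± 0.21, adjusted p = 0.00286), and so was SLC30A7, at 37.9 ± 5.17 against 21.0 ± 1.85 CPM (log2 −0.85 ± 0.17, adjusted p = 0.00185). The difference between SLC30A5 and the other pair was not itself tested. SLC30A9, a transporter of the mitochondrial membrane, was lower too, with 140 ± 35.2 against 77.4 ± 10.8 CPM (log2 −0.85 ± 0.21, adjusted p = 0.00494).

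SLC30A3, which loads synaptic vesicles in neurons, was rare, at 2.31 ± 0.963 against 1.01 ± 0.234 CPM. It passed narrowly (log2 −1.20 ± 0.45, adjusted p = 0.0392), and the call was lost without DMSO replicate 1 (log2 −1.21, adjusted p = 0.074) or 2 (−0.86, 0.179), or without MI-503 replicate 1 (−0.98, 0.124), 2 (−1.15, 0.113) or 3 (−1.34, 0.0579). SLC30A10, chiefly a manganese exporter, had 0.814, 0.484 and 0.182 CPM with the DMSO label, 32 reads in all, and no read with the MI-503 label. Set against a floor of 3 reads over the MI-503 group, it was at least 9.31-fold lower. SLC30A2, which moves zinc into milk-secreting vesicles, had 1 read in 1 library labelled DMSO and none with the MI-503 label. SLC30A8, the transporter of insulin granules, had no read at all, which at this depth allows up to 0.0464 CPM over the DMSO group and 0.0531 CPM over the MI-503 group.

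Summed over the 10 genes, SLC30A reads came to 770, 591 and 425 CPM in the libraries labelled DMSO against 308, 307 and 288 CPM in those labelled MI-503. The sums did not overlap, and SLC30A4 alone made up most of the distance between their means of 596 ± 173 and 301.0 ± 11.4 CPM. CPM sums weigh long transcripts more than short ones.

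All 12 tested SLC39A genes passed the test, 6 as higher and 6 as lower with the MI-503 label, with a median log2 fold change of −0.04. Of all genes tested, 62.9% passed, 31.7% as higher and 31.2% as lower. SLC39A10 (chr2:195575977-195737702, plus strand), a plasma membrane importer that pairs with SLC39A6, had 206, 140 and 131 CPM in the libraries labelled DMSO against 29.8, 28.1 and 27.0 CPM in those labelled MI-503. The groups were far apart and the libraries labelled MI-503 lay close together (log2 −2.49 ± 0.20, adjusted p = 4.36e-06). SLC39A6, also called LIV-1 and known as an estrogen-responsive gene in breast cancer, was lower as well, at 174 ± 15.3 against 90.1 ± 11.2 CPM (log2 −0.95 ± 0.15, adjusted p = 0.000444). ESR1 RNA was near 0 in the libraries with the higher SLC39A6 level, and a link between ESR1 and SLC39A6 was not tested.

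SLC39A8 and SLC39A14 carry other metals besides zinc, manganese among them. SLC39A8 was at 66.2 ± 10.8 against 20.1 ± 2.79 CPM (log2 −1.72 ± 0.19, adjusted p = 3.45e-05) and SLC39A14 at 165 ± 3.98 against 58.5 ± 10.7 CPM (log2 −1.49 ± 0.16, adjusted p = 3.55e-05). The plasma membrane importer SLC39A3 was at 73.4 ± 4.10 against 25.5 ± 4.11 CPM (log2 −1.53 ± 0.17, adjusted p = 3.94e-05). SLC39A4, the intestinal importer mutated in acrodermatitis enteropathica, was at 36.6 ± 3.97 against 17.2 ± 1.47 CPM (log2 −1.09 ± 0.17, adjusted p = 0.000371). For each of these 4 genes, the ranges of the labels did not overlap.

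The 6 higher genes were SLC39A1, SLC39A2, SLC39A7, SLC39A9, SLC39A11 and SLC39A13. SLC39A7, which releases zinc from the endoplasmic reticulum, was at 145 ± 18.4 CPM in the libraries labelled DMSO against 373 ± 64.3 CPM in those labelled MI-503 (log2 1.36 ± 0.18, adjusted p = 0.000104). SLC39A13, a transporter of the Golgi and vesicles mutated in a form of Ehlers-Danlos syndrome, was at 19.0 ± 4.46 against 57.0 ± 6.49 CPM (log2 1.59 ± 0.21, adjusted p = 0.000117). SLC39A9, found at the Golgi and the plasma membrane, had the smallest of the increases, at 127 ± 9.77 against 230.0 ± 5.35 CPM (log2 0.86 ± 0.14, adjusted p = 0.000411). SLC39A11 was at 26.8 ± 1.45 against 87.6 ± 3.04 CPM (log2 1.71 ± 0.15, adjusted p = 6.17e-06).

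The plasma membrane importer SLC39A1, known as a major zinc importer of prostate cells, was at 117 ± 17.1 CPM in the libraries labelled DMSO against 289 ± 29.3 CPM in those labelled MI-503 (log2 1.30 ± 0.16, adjusted p = 8.91e-05). SLC39A2 (chr14:20999255-21001871, plus strand), a close relative of it, was rare throughout, with 0.271, 0.145 and 0.319 CPM against 2.78, 1.47 and 2.67 CPM. Its groups did not overlap (log2 3.19 ± 0.51, adjusted p = 0.000364), on 16 reads over the DMSO label and 130 over the MI-503 label. SLC39A5, an importer of gut and pancreas, had 3 against 14 reads, or 5.35 times as many per read sequenced (95% counting interval 1.49 to 29.0). SLC39A12, mostly a brain gene, had no read, with the limits given for SLC30A8. Summed SLC39A reads were 1159, 1098 and 1069 CPM in the libraries labelled DMSO against 1375, 1180 and 1281 CPM in those labelled MI-503, so that the sums did not overlap although the members went both ways.

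**Figure D2:**
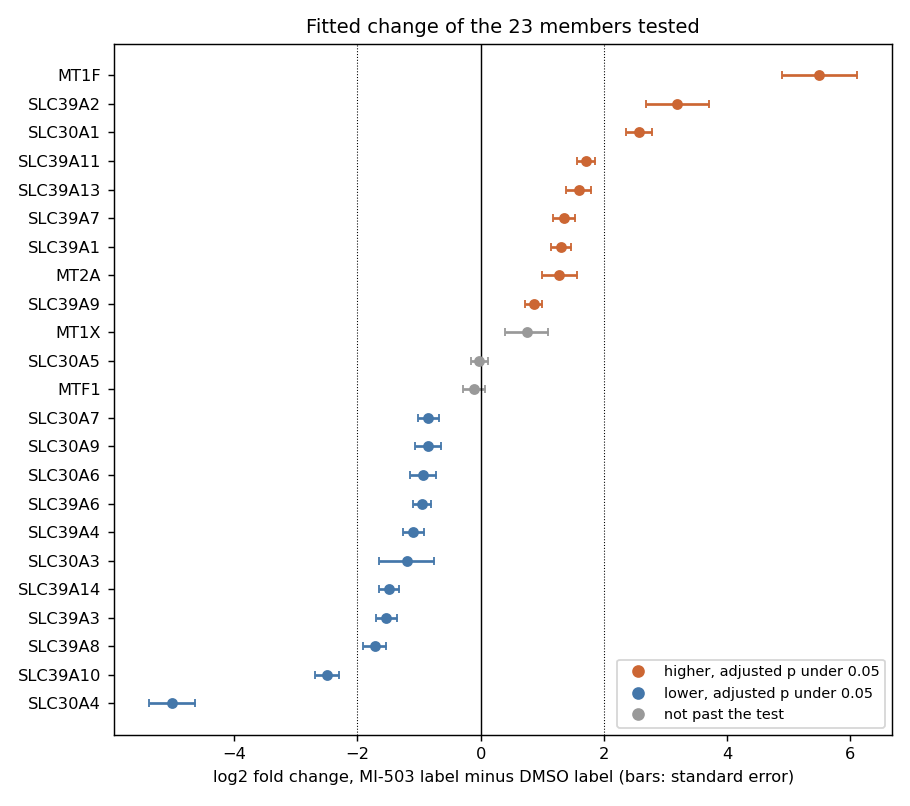
Log2 fold change of the 23 genes tested, MI-503 label minus DMSO label, from edgeR; bars are standard errors and dotted lines mark 2 and −2. MT1F was at 5.50 and SLC30A4 at −5.01, and the grey points are MT1X, SLC30A5 and MTF1.

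Of the 10 metallothionein genes, only MT2A, MT1X and MT1F passed the filter. MT2A (chr16:56608584-56609497, plus strand), the most abundant, had 26.4, 43.1 and 52.6 CPM in the libraries labelled DMSO against 93.4, 134 and 69.0 CPM in those labelled MI-503. The ranges did not overlap (log2 1.28 ± 0.29, adjusted p = 0.00348), but DMSO replicate 3 and MI-503 replicate 3 lay near each other. MT1X (chr16:56682470-56684196, plus strand) had 8.50, 24.9 and 22.3 CPM against 35.5, 34.7 and 23.3 CPM. Its ranges overlapped and it did not pass (log2 0.75 ± 0.35, adjusted p = 0.0901).

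MT1F (chr16:56657731-56660698, plus strand) had 0.0905, 0.339 and 0.228 CPM with the DMSO label, 14 reads in all, and 11.7, 14.4 and 4.28 CPM with the MI-503 label, 587 reads in all. The log2 fold change of 5.50 ± 0.61 (adjusted p = 3.48e-05) was the highest of the members tested. MT1M had no read in the libraries labelled DMSO, and 28, 27 and 1 reads in those labelled MI-503, which made it at least 21.4-fold higher against the floor of 3 reads over the DMSO group. Replicate 3 held almost none of those reads. Without the filter on low counts, MT1M and SLC30A10 passed as well (adjusted p of 1.54e-06 and 0.000333). MT1B had 4 reads, MT1G 2 and MT3, the form typical of brain, 1, all with the MI-503 label, and MT1A, MT1E and MT1H had none in any library.

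MT1 genes and MT2A are near-identical copies between which the quantification may split reads, so their reads were also summed. The sum was 35.0, 68.3 and 75.0 CPM in the libraries labelled DMSO against 142, 184 and 96.6 CPM in those labelled MI-503, and it was higher as 1 feature (log2 1.25 ± 0.31, adjusted p = 0.00521). DMSO replicate 1 was the lowest of its label, and MI-503 replicate 3 the lowest of the other. As shares of summed metallothionein TPM, the unit that corrects for transcript length within a library, MT2A made up 70.2 ± 6.23% and 73.7 ± 2.77%, MT1X 29.6 ± 6.18% and 20.1 ± 2.25%, and MT1F 0.24 ± 0.078% and 5.51 ± 1.98% in the libraries labelled DMSO and MI-503. The MT2A shares overlapped between the labels, whereas those of MT1X (at least 23.8% against at most 21.8%) and of MT1F did not.

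**Figure D3:**
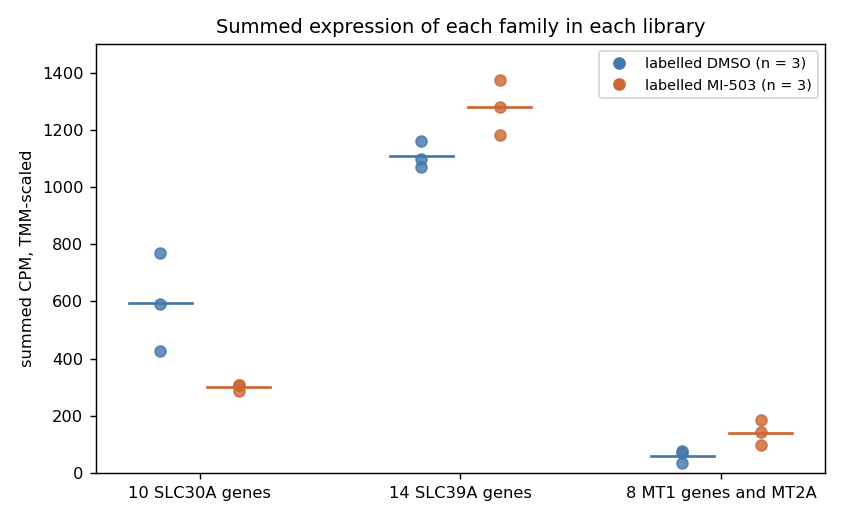
Summed CPM of the SLC30A genes, the SLC39A genes and the MT1 genes with MT2A in each library; points are libraries and lines are means of 3. The SLC30A sums averaged 596 against 301.0 CPM, the SLC39A sums 1109 against 1279 CPM and the metallothionein sums 59.4 against 141 CPM.

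The 10 genes lie within 95123 bases of chromosome 16 (56589074 to 56684196). The RNA was uneven along this stretch: the genes with many reads, MT2A and MT1X, lie toward its ends, and MT1E, MT1A and MT1H, which lie in between, had none. Among the 5 nearest tested protein-coding genes on each side, 2 passed as higher and 4 as lower (OGFOD1, BBS2, NUP93 and CPNE2), and 4 did not pass. Of all genes tested, 62.9% passed in either direction, 31.7% as higher and 31.2% as lower. LPCAT2, among the higher genes, lies 1002408 bases from the cluster and had 1 read over the DMSO label. It passed the filter on low counts through the MI-503 label alone, so it had to differ. BBS2, the nearest to MT3, was lower by 0.56 ± 0.17 on the log2 scale (adjusted p = 0.0157), and NUP93, the nearest to MT1X, had a log2 fold change of −1.59 ± 0.22 (adjusted p = 0.000137).

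**Figure D4:**
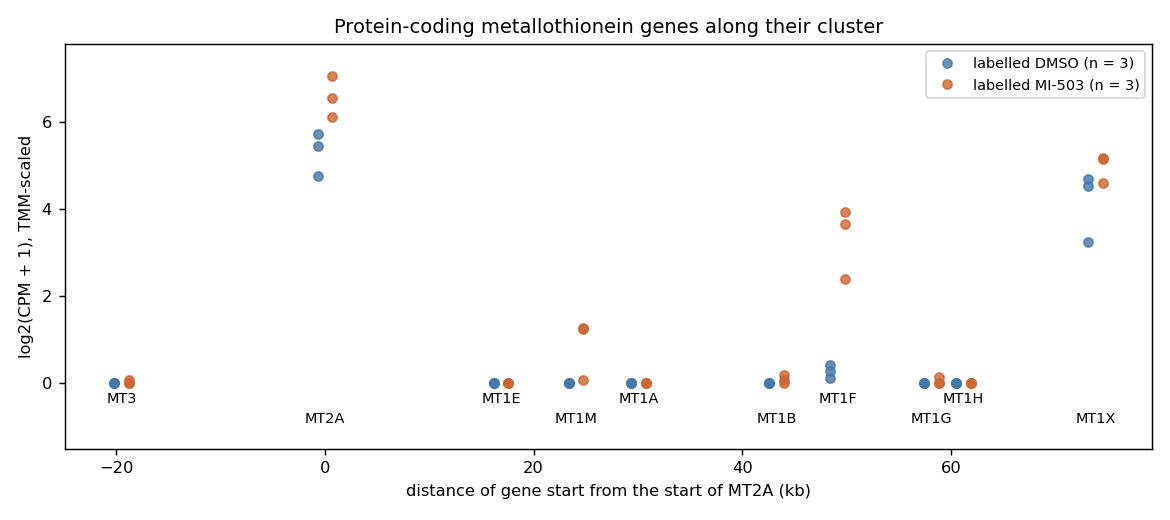
Level of each protein-coding metallothionein gene, as log2(CPM + 1), by the distance of its start from that of MT2A in kilobases; points are libraries, drawn slightly apart by label. MT1F, between MT1B and MT1G, was the gene with few reads in the libraries labelled DMSO and up to 14.4 CPM with the MI-503 label.

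MTF1 (chr1:37809574-37859592, minus strand) had 31.0, 27.7 and 36.6 CPM in the libraries labelled DMSO against 32.9, 27.3 and 28.0 CPM in those labelled MI-503. The ranges overlapped and no difference was detected (log2 −0.11 ± 0.18, adjusted p = 0.595).

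Levels between genes were compared as TPM. MT2A was the highest of the 35 in both groups, at 409 ± 125 TPM in the libraries labelled DMSO against 969 ± 235 TPM in those labelled MI-503, followed by MT1X at 179.9 ± 80.2 and 262 ± 52.2 TPM. MT2A and MT1X did not overlap within either label. TPM of such short transcripts rest on effective lengths of 111 to 134 bases for the main MT2A transcript, so they carry that estimate's error. With the DMSO label SLC39A4 came next at 104 ± 8.33 TPM, then SLC39A7 at 93.4 ± 6.51, SLC39A1 at 82.3 ± 7.66, SLC39A6 at 78.1 (68.4 to 92.8) and SLC39A3 at 70.6 ± 11.2 TPM. In this order neighbouring ranges overlapped from MT1X on, except between SLC39A7 and SLC39A1. With the MI-503 label SLC39A7 at 222 ± 36.8 TPM overlapped MT1X and SLC39A1, which was at 190.0 ± 16.7 TPM. SLC30A5 had the highest mean of the SLC30A genes there, at 45.1 ± 6.62 TPM, with a range that overlapped that of SLC30A9 at 36.0 ± 6.26 TPM, and SLC30A9 at 67.9 ± 17.1, SLC30A4 at 61.9 ± 29.5 and SLC30A5 at 59.1 ± 6.51 TPM could not be ordered with the DMSO label. The 6164-base coding transcript of SLC30A9 took 30.3% of the gene's TPM with the DMSO label and 29.4% with the MI-503 label. A transcript annotated for nonsense-mediated decay took 46.8% and 50.5%.

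Transcript shares within genes were examined as a description, since 3 libraries against 3 cannot give an exact permutation p below 0.10. Of 59 transcripts of the 23 genes with a share of at least 10% in 1 library, 17 did not overlap between the labels, against 24.6% of all such transcripts. The following were chosen after their values were seen. SLC30A5, for whose summed reads no difference was detected, had its 1317-base transcript of 4 exons at 36.1%, 43.9% and 45.3% of the gene's TPM in the libraries labelled DMSO against 10.4%, 12.5% and 10.6% in those labelled MI-503. The 3992-base transcript of 16 exons had shares of 53.8%, 38.5% and 40.6% against 61.6%, 61.0% and 77.8%. Neither range overlapped, and the reads summed over each label were 1232 against 235 for the short form and 4342 against 4577 for the long form.

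For MT1X, a transcript annotated for nonsense-mediated decay (549 bases) made up 1.31%, 0.863% and 0.404% of the gene's TPM in the libraries labelled DMSO against 11.5%, 7.48% and 14.9% in those labelled MI-503. The 404-base coding transcript made up almost all the rest, at 98.9 ± 0.293% and 88.2 ± 3.68%. In SLC39A13, the 2330-base transcript took 30.9% to 40.7% against 14.5% to 20.6%, without overlap, whereas the 2289-base transcript overlapped at 37.2 ± 15.2% and 43.1 ± 4.23%. Most SLC39A4 TPM came from a 668-base transcript with no defined coding sequence, at 67.5 ± 2.42% and 71.7 ± 6.35%. The gene's 498-base transcript took 18.8 ± 2.97% and 20.9 ± 6.19%, and its 795-base transcript 10.0 ± 3.49% and 4.92 ± 0.910%. Neither has a defined coding sequence, and no coding transcript of SLC39A4 reached 10% in any library. The TPM of SLC39A4 above, and most reads behind its call, are thus those of transcripts not annotated as coding. Transcripts that share exons share reads, and the split between them is the quantification's estimate.

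**Figure D5:**
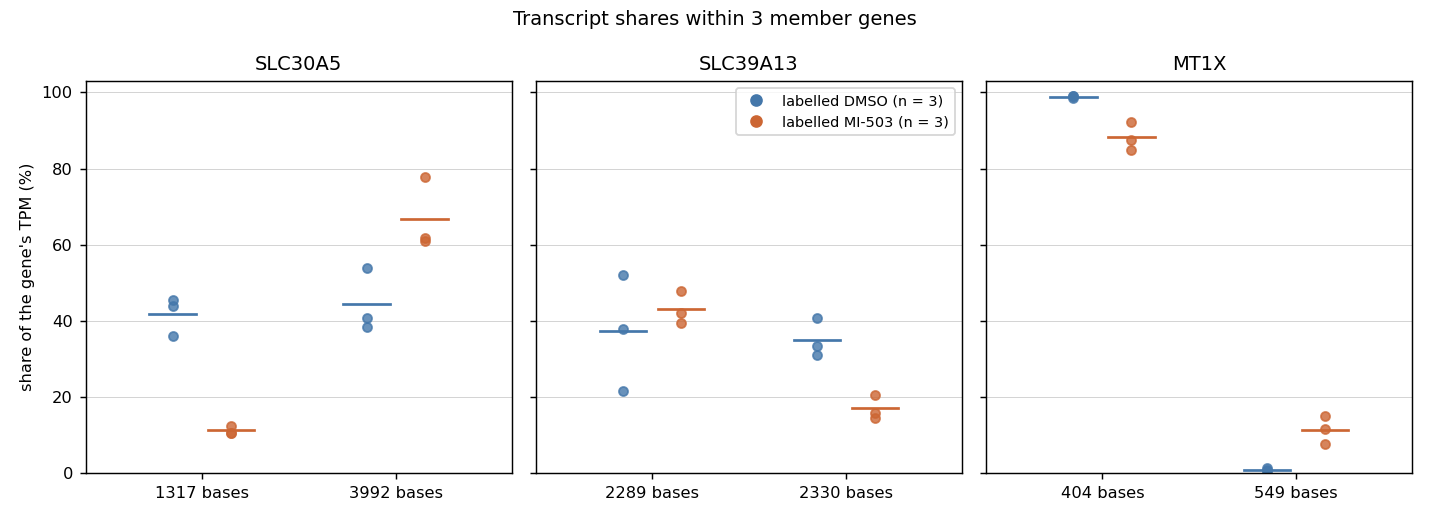
Share of each gene's TPM, in percent, taken by a pair of transcripts each, named by length in bases, of SLC30A5, SLC39A13 and MT1X; points are libraries and lines are means of 3. The 1317-base SLC30A5 transcript averaged 41.8% in the libraries labelled DMSO against 11.2% in those labelled MI-503.

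Other genes of metal handling were counted in lists by function. Of 12 stress and metal inducible genes, 3 passed as higher and 4 as lower, and 5 did not (median log2 fold change −0.22). Over all genes tested, 31.7% passed as higher and 31.2% as lower. The count of lower genes in the list was 2 without any 1 of the libraries labelled MI-503. Among the 12 genes GCLM, the modifier subunit of the glutathione synthesis enzyme, was lower (log2 −1.41, adjusted p = 3.03e-05) and its catalytic partner GCLC was higher (log2 0.75, adjusted p = 0.00225). SLC7A11, the cystine importer, was lower (log2 −4.27, adjusted p = 0.000135), and the heat shock gene HSPA1A was higher (log2 4.02, adjusted p = 3.99e-06). HSPA1A shares reads with the near-identical HSPA1B (log2 −0.39, adjusted p = 0.202), so its value is uncertain.

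Of 19 copper and iron genes, 4 passed as higher and 4 as lower, and 11 did not (median 0.17). The shares over all genes tested were 31.7% higher and 31.2% lower. SLC40A1, the iron exporter ferroportin, had 2 reads over the DMSO label and averaged 297 ± 43.6 CPM with the MI-503 label (adjusted p = 2.26e-08), so that pooled CPM differed 9540-fold (95% counting interval 2640 to 78800). SLC40A1 passed the filter on low counts through the MI-503 label alone, so it had to differ. The copper pump ATP7A (log2 −2.37, adjusted p = 2.11e-05), the mitochondrial iron importer SLC25A37 (log2 −2.10, adjusted p = 2.65e-05) and the ferrireductase STEAP3 (log2 −1.58, adjusted p = 8.27e-05) were lower.

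Of 13 zinc-containing phosphatases, phosphodiesterases and carbonic anhydrases, 6 were tested, of which 3 were higher and 1 was lower (median 0.68). Over all genes tested, 31.7% were higher and 31.2% lower. The membrane carbonic anhydrase CA12 was at 46.9 ± 3.03 against 922 ± 131 CPM (log2 4.30 ± 0.18, adjusted p = 7.42e-08). CA14 (log2 2.12, adjusted p = 0.00627) and the ectoenzyme ENPP1 (log2 1.12, adjusted p = 0.000497) were higher, and ENPP3 was lower (log2 −2.90, adjusted p = 0.00257). Of 14 zinc-linked regulators and transcription factors reported at these genes, 13 were tested, with 8 higher, 2 lower and 3 not past the test (median 0.46). The shares over all genes tested, again, were 31.7% higher and 31.2% lower. STAT5A (log2 7.24, adjusted p = 2.95e-07) and the glucocorticoid receptor NR3C1 (log2 5.27, adjusted p = 5.8e-05), which binds at metallothionein genes, were higher along with ESR1. STAT5A had 5 reads over the DMSO label and ESR1 had 4. Both passed the filter on low counts through the MI-503 label alone, so they had to differ. NR3C1 had 31 reads over the DMSO label, none of them in replicate 3. The count of higher genes fell to 4 without DMSO replicate 2. ESR1 and NR3C1 were higher with the same label as the breast markers, and their part in the values of the zinc genes was not tested.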

How the data were processed

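RNA from 6 cultures labelled as T47D was isolated with a column kit with DNase, and Novogene made and sequenced the libraries. The authors quantified transcripts with salmon (Illumina DRAGEN) and deposited, per transcript and without normalization across libraries, estimated counts of reads and TPM, with transcript and effective lengths. The submitters' processing notes name GRCh38.p13 and hg38. For the salmon version and annotation release, the sources used here are silent.

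Estimated counts of the 232117 deposited transcripts were assigned to genes with GENCODE release 44 (98.8% matched, at least 99.16% of reads), summed to 61279 genes and rounded. Mitochondrial genes took 1.38% to 7.18% of reads. The labels were compared over all genes by the quasi-likelihood test of edgeR 4.0.16 (R 4.3.3), with TMM scaling, filterByExpr and Benjamini-Hochberg adjustment. Calls needed an adjusted p under 0.05, and where stated a log2 fold change over 2 or under −2. The study made its calls with DESeq2, used here as an alternative (1.42.0). TMM factors lay between 0.934 and 1.053. CPM were scaled by TMM. The ± values are SDs over 3 libraries, or SEs beside log2 fold changes. For a group without reads a floor of 3 reads over the group was used. Intervals and floors cover counting error only. The scripts were tested on simulated counts with known changes.

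The members and the lists were chosen with earlier results of these data known. Per-library values are given for members with a log2 fold change beyond 2, for MTF1 and for members without reads in a group, with MT2A and MT1X added after their values were seen; from each list, up to 4 genes with the smallest adjusted p are named, apart from items not reported here. Alternatives were other scalings, filters, DESeq2, a replicate block, length offsets, leaving out mitochondrial genes and leaving out each library. If the libraries of a label were not separate cultures, p-values would measure technical spread.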

Additional observations from a re-analysis of the deposited data

How the results depend on the processing

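Over the alternatives tried for the 23 genes tested, 348 values were recomputed, 3 of them the metallothionein sum set in place of MT2A, MT1X and MT1F, and 338 stayed on the same side of the threshold. The 8 that lost the call were all of SLC30A3: besides the 5 left-out libraries given above, it lost the call without a filter on low counts (log2 −1.15, adjusted p = 0.0562), with the replicate block (−1.14, 0.106) and with effective length offsets (−0.78, 0.232). MT1X gained the call without a filter (0.78, 0.00609), and the sum set in its place passed (1.25, 0.00521), which is no call of MT1X itself. No called gene changed sign, but the uncalled MTF1 (−0.24 to 0.08) and SLC30A5 (−0.30 to 0.06) did. Leaving out 1 library gave 9 to 10 higher and 10 to 12 lower members, 3 to 4 and 2 to 3 of them beyond the fold threshold, and 0.98 to 1.48 for the metallothionein sum. DESeq2 called 5255 higher and 5219 lower genes, against 5208 and 5130. Upper-quartile scaling and library totals alone shifted the median log2 fold change of all genes by −0.10 and −0.12.

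The same-numbered libraries showed no clear joint deviation (correlations of −0.0588, 0.132 and −0.0761). Deviations of 3 libraries from their own mean are tied to each other, so these values cannot exclude a pairing by number. Of the libraries labelled DMSO, only replicate 2 correlated best with its own number. The replicate block left 9 higher and 10 lower members, 1.28 for the metallothionein sum, and 5071 higher and 4913 lower genes in all.

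Several small lists moved, and unless noted the cause was not tested. Lower stress and metal inducible genes ran from 2 (without MI-503 replicate 1, 2 or 3) to 4. Lower zinc enzymes were 1, but 2 with no filter or with effective length offsets, and 0 with at least 1 CPM required in 3 libraries, where fewer genes are tested. Higher regulators were 8, but 5 with library totals alone and between 4 and 8 with 1 library left out. Higher genes beside the metallothionein cluster were 2, and 1 with at least 1 CPM in 3 libraries, where LPCAT2 is not tested. Depth limits the 12 genes below the filter, for which only large differences could be seen.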
